A study of Mus musculus with 4 samples.

Results

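The genes described here encode the nuclear part of oxidative phosphorylation. They were taken by name from the deposited gene tables: symbols of the Nduf a, b, c, s and v series, Sdha to Sdhd, Uqcr, Cox4 to Cox8 and Atp5, without names ending in -ps and with at least 10 UMIs (unique molecular identifiers, 1 per captured transcript) over the 4 libraries. Of 32285 genes in the tables, 82 symbols matched and 78 passed the minimum: 35 of complex I, 4 of complex II, 8 of complex III, 14 of complex IV and 17 of complex V. Cox8b had 2 UMIs and Cox7b2, Cox8c and Ndufa4l2 had none. The name rule passes over some true subunits, among them Cox4i1, Ndufab1 and Cyc1, which are given with the other lists at the end, and Ndufb1-ps, which had 16287 UMIs.

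Oxidative phosphorylation takes electrons from NADH at complex I and from succinate at complex II, passes them through complex III and cytochrome c to oxygen at complex IV, and uses the proton gradient so formed to make ATP at complex V. Most subunits are encoded in the nucleus and imported. A small core of complexes I, III, IV and V is encoded by mitochondrial DNA (mtDNA), so both genomes must be read to build a working chain. Naive T cells divide rarely and have small mitochondria; after activation T cells grow, divide and raise both glycolysis and respiration.

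The study sorted live CD45+ CD3+ CD8+ T cells from B16F10 tumours (a mouse melanoma line) of C57BL/6J mice that were 6 to 8 weeks old, and made 10x Genomics 5′ single-cell libraries. There were 2 libraries with the label sgScr (a scrambled guide RNA) and 2 with the label sgArid1a (a guide against Arid1a, which belongs to the SWI/SNF family of chromatin remodellers). The labels say neither which cells carried the guide nor that replicates came from separate animals, so p-values measure the spread between these libraries, which may be technical.

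The 4 matrices held 7376 to 13085 barcodes, of which 38177 were kept as T cells: 7629 and 7150 in sgScr and 10666 and 12732 in sgArid1a, with 32086960 to 80741973 UMIs per library. Arid1a transcripts stood at 85.0 and 93.7 UMIs per 1000000 (CPM) in sgScr and at 74.2 and 72.5 CPM in sgArid1a T cells (log2 fold change -0.26 ± 0.06 SE, edgeR adjusted p = 0.00402). Within states its groups overlapped in naive-like cells (91.4 and 99.9 against 94.0 and 84.6 CPM), and in Ly49-like, early activated-like and effector-like cells. They were apart, with sgArid1a lower, in exhausted-like (69.4 and 81.3 against 63.5 in both), cycling-like (77.0 and 86.8 against 69.3 and 68.7), memory-like and interferon-stimulated-like cells and in clusters 3 and 12. Levels of Arid1a were thus lower in exhausted-like and cycling-like than in naive-like cells of every library, and the shares of those states were higher in sgArid1a. Any pair of libraries shared between 78 and 231 cell barcodes, at most 2.07% of the smaller one. Marker genes of melanoma and red cells summed to under 1 CPM in every library, and B cell markers to between 8.77 and 14.2 CPM. Of the 7 dendritic cell markers, among them H2-Aa, H2-Ab1, H2-Eb1 and Cd74, 1 had a mean of 10 CPM or more and Siglech was at 0. Their sum was 29.0 and 34.9 CPM in sgScr and 77.8 and 73.0 CPM in sgArid1a. The 5 CD4 and regulatory T cell markers stood at 31.7 and 39.2 against 57.8 and 55.7 CPM. The 6 natural killer cell markers ranged from 99.3 to 125 CPM with overlapping groups. The part of these markers in the group differences below was not tested. Cells fell into states named from marker genes, "-like" because the names are rebuilt here. Naive-like cells were 50.6 and 49.0% of sgScr and 18.9 and 20.02% of sgArid1a T cells, and cycling-like cells were 3.05 and 3.19% against 10.1 and 10.7%. The other named states were memory-like, effector-like, exhausted-like, early activated-like, interferon-stimulated-like, Ly49-like (killer cell receptors of the Klra family) and heat shock-like cells. Cycling-like cells also had 8 of 8 exhausted markers raised over the other cells, and early activated-like cells 4 of 8. These states thus overlap in markers with exhausted-like cells. Cluster 3, led by Cd163l1 and G0s2, and cluster 12, whose cells had a median UMI count at 0.361 of their libraries' median, stayed unnamed.

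The 78 genes together took 1.96 and 1.91% of all UMIs in sgScr T cells and 2.49% in both sgArid1a libraries. Complex V supplied 37.1% of these UMIs, complex I 27.8%, complex IV 23.1%, complex III 9.92% and complex II 2.09%. These shares leave out subunits that the name rule passes over. Among those, Cox4i1 of complex IV stood at 959 and 981 CPM in sgScr and 1216 and 1150 CPM in sgArid1a. A UMI is counted once per captured transcript whatever its length, so levels of different genes are set side by side here as shares of UMIs. How capture differs between genes was not tested, and reads of members that overlap another gene may be split or lost. The highest of the 78 genes was Cox8a, a small subunit of complex IV (Ensembl ENSMUSG00000035885; chromosome 19, 7215153 to 7217616, GRCm38), at 987 and 931 CPM in sgScr and 1278 and 1297 CPM in sgArid1a. Atp5g2, one of the genes for the proton-carrying subunit c of complex V, followed at 931 and 939 against 1212 and 1188 CPM. In complex III the highest was Uqcrh, the hinge protein beside cytochrome c1, at 867 to 910 CPM in sgScr and 826 to 888 CPM in sgArid1a. In complex I it was Ndufa6, an accessory subunit, at 420 to 467 CPM over the 4 libraries, followed by Ndufa13 at 349 to 469 CPM. Sdhb, the iron-sulfur subunit of complex II, stood at 158 and 162 against 232 and 236 CPM.

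Promoters were looked at because nuclear respiratory factor 1 (NRF1) and GABP, a factor of the ETS family, are known activators of these genes, as is YY1 of some. RefSeq held a promoter sequence (GRCm38.p6, 250 bases before to 50 after the start) for 66 of the 78 genes, matched by symbol or synonym. The NRF1 letters GCGCNTGCG, on either strand, lay in 24 of the 66 (36.4%) and in 7.12% of the 27025 genes with a promoter sequence. The ETS letters CCGGAAG lay in 17 (25.8%) and in 9.93% of those genes, and the YY1 letters AAGATGGCG in 7 (10.6%) and in 1.64%. The 27025 were taken whether or not these cells express them, whereas the members passed a UMI minimum. The 2 sets are thus unlike, and the shares among expressed genes alone were not read. The sequences below run from 150 bases before to 25 after the start, 5′ to 3′ on the gene's strand. The first 5 show, for each complex, the gene with the smallest p among those called higher in sgArid1a whose window holds the NRF1 letters; the last 3 are the genes that stand lower in cycling-like than in naive-like cells (below). Capitals mark NRF1 and ETS letters.
Ndufs6 (chr13:73328458-73328632, minus strand): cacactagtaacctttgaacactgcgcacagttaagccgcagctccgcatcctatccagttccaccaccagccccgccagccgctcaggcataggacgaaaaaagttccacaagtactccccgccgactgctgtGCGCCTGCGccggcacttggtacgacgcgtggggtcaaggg
Sdhd (chr9:50603825-50603999, minus strand): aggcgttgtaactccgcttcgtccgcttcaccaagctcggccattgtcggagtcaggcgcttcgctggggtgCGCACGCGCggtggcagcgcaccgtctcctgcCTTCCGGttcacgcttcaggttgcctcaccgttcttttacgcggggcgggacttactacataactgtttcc
Uqcr11 (chr10:80406797-80406971, minus strand): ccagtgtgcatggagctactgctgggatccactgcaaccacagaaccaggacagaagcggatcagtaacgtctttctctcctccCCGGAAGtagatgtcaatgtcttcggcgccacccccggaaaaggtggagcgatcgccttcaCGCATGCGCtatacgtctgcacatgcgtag
Cox6a1 (chr5:115348934-115349108, minus strand): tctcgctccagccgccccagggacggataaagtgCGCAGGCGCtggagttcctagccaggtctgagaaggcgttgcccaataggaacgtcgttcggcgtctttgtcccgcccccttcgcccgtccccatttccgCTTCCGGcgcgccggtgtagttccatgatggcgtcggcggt
Atp5g3 (chr2:73911302-73911476, minus strand): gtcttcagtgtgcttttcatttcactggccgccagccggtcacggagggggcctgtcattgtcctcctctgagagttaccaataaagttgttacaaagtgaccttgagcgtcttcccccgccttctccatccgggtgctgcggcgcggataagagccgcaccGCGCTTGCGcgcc
Cox7a2l (chr17:83514309-83514483, minus strand): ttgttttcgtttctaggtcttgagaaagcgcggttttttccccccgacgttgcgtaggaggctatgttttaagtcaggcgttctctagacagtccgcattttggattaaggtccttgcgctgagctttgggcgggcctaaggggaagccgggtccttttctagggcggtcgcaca
Ndufa6 (chr15:82354267-82354441, minus strand): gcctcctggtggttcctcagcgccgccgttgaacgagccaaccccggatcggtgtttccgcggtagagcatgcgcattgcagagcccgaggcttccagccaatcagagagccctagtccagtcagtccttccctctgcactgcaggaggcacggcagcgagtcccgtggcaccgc
Uqcrh (chr4:116075046-116075220, minus strand): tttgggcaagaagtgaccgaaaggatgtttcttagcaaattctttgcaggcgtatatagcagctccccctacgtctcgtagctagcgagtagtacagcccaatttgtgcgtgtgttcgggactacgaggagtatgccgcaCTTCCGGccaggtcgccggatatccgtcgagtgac
Ndufs6 carries the NRF1 letters from 16 bases before the start, Uqcr11 from 5 before, Sdhd from 78 before and Cox6a1 from 116 before, whereas in Atp5g3 they begin at base 13 of the transcript. Sdhd, Uqcr11, Cox6a1 and Uqcrh also hold the ETS letters, and the windows of Cox7a2l and Ndufa6 hold neither. The annotated Cox7a2l gene begins at 83517330 on the minus strand, outside its window. The lack of letters there holds for another start, and the outer one was not read. Members with and without the NRF1 letters had like values in the comparisons below. The median log2 fold change between groups was 0.43 in the 24 with them and 0.44 in the 42 without. The median log2 ratio of cycling-like to naive-like cells was 1.05 and 1.06. For the ETS letters (17 with, 49 without) these medians were 0.45 and 0.43 between groups, and 1.16 and 1.03 between states. For the YY1 letters (7 with, 59 without) they were 0.44 and 0.42, and 1.09 and 1.05. These differences were not tested. A match of letters is a description and not a bound site.

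Across cell states the summed level of the 78 genes was lowest in naive-like and highest in cycling-like T cells, apart from the heat shock-like cells and the unnamed cluster 12. It was 15911 and 15583 CPM in naive-like cells of sgScr and 17133 and 17028 CPM in those of sgArid1a. Cycling-like cells had 29319 and 28131 CPM in sgScr and 31028 and 30473 CPM in sgArid1a, which is 1.79 to 1.84 times the naive-like level of the same library. Exhausted-like cells stood at 1.64 to 1.69 times and early activated-like cells at 1.51 to 1.64 times the naive-like level, and their ranges over libraries meet at 1.64. Memory-like cells (1.24 to 1.27 times) and effector-like cells (1.23 to 1.31 times) overlapped each other. Interferon-stimulated-like cells (1.11 to 1.15), Ly49-like cells (1.101 to 1.19) and cluster 3 (1.03 to 1.095) came next, and every one of these ratios was above 1 in 4 of 4 libraries. Heat shock-like cells were at 0.871 to 0.998 times and cluster 12 at 0.309 to 0.653 times the naive-like level. These levels across states are descriptions, without a test.

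**Figure D1:**
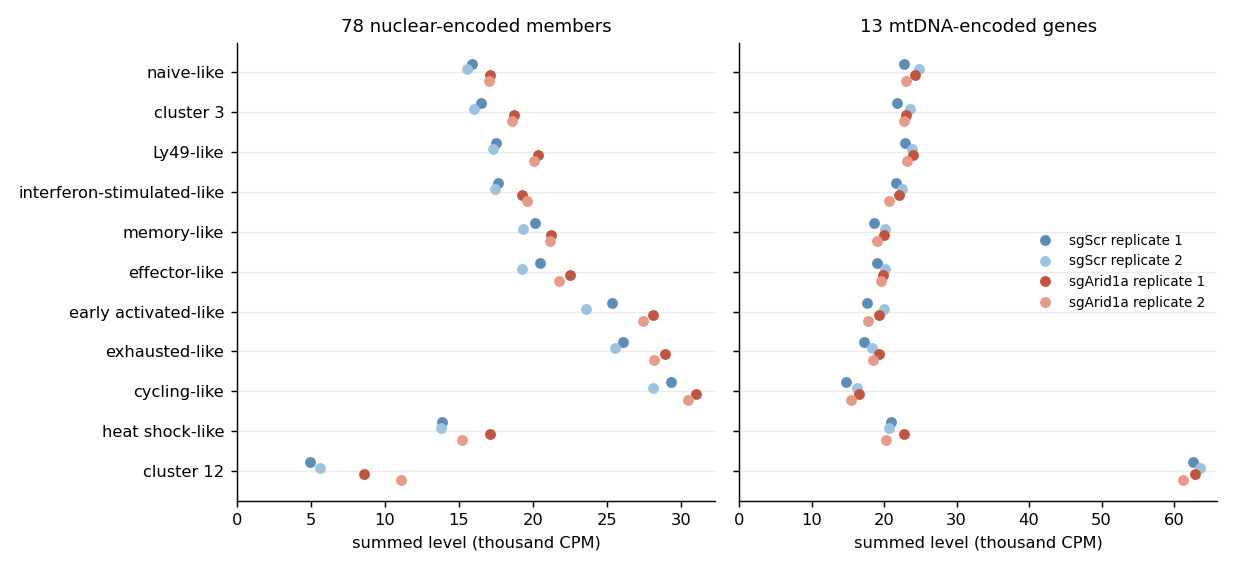
Summed level (x axis, in units of 1000 CPM) of the 78 nuclear-encoded genes (left) and the 13 mtDNA-encoded genes (right) in each cell state (y axis), 1 point per library coloured by group and replicate. Nuclear levels run from about 15583 CPM in naive-like to 31028 CPM in cycling-like cells, while the mtDNA-encoded genes are lowest in cycling-like cells. Heat shock-like cells (from 13784 CPM) and cluster 12 (from 4912 CPM) reach lower on the left.

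The 13 protein genes of mtDNA ran the other way on the same scale. Their sum was 22784 to 24882 CPM in naive-like and 14745 to 16516 CPM in cycling-like cells, a ratio of 0.647 to 0.681 within libraries. In exhausted-like cells the ratio was 0.737 to 0.805 and in early activated-like cells 0.773 to 0.806. Per cell, however, both rose: a cycling-like cell held 340 to 588 UMIs of the nuclear genes and 181 to 296 of the mtDNA-encoded genes, against 33.9 to 59.6 and 48.1 to 88.6 in a naive-like cell. Median total UMIs per cell were 10111 to 17863 in cycling-like and 1794 to 3469 in naive-like cells, so the CPM values describe shares of a much larger transcript pool. In cluster 12 the mtDNA-encoded genes took 61172 to 63542 CPM while the nuclear genes took 4912 to 11113 CPM, and its median UMIs per cell were 1002 to 1406.

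The increase from naive-like to activated cells was broad but not equal. Of 75 members with a mean of at least 10 CPM, 71 were above the naive-like level in all 4 libraries in cycling-like cells, where 52.8% of all genes at that level were. The count was also 71 in exhausted-like cells (49.1% of all genes) and 71 in early activated-like cells (47.8%), and it was 68 in memory-like cells (52%). The median ratio over the 75 was 2.04 in cycling-like, 1.77 in exhausted-like, 1.68 in early activated-like and 1.32 in memory-like cells. By complex the median log2 ratio of cycling-like to naive-like was 1.12 in complex III, 1.09 in complex V, 1.08 in complex IV, 0.84 in complex I and 0.80 in complex II. As a sum of CPM, in which Uqcrh weighs most, complex III had the lowest ratio of the 5 in every library, 1.31 to 1.43, against 1.72 to 1.99 for the other complexes.

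Ndufb8, an accessory subunit of the membrane arm of complex I (ENSMUSG00000025204; chromosome 19, 44548572 to 44555440), had the highest ratio in cycling-like cells among the 75. It rose from 100.2 and 97.6 CPM in naive-like cells of sgScr to 343 and 328 CPM in cycling-like ones, and from 122 and 114 to 435 and 397 CPM in sgArid1a. A same-strand gene, Gm20538, overlaps it in the annotation, so its reads may not be its own alone. Cox5a, a nuclear-encoded subunit of complex IV (ENSMUSG00000000088; chromosome 9, 57521274 to 57532426), went from 251 to 297 CPM in naive-like to 756 to 932 CPM in cycling-like cells, with no overlap between the states. Atp5g3 (ENSMUSG00000018770; chromosome 2, 73908447 to 73911326) went from 418 to 485 CPM to 1268 to 1506 CPM. Ndufc2, Ndufb7 and Cox5b followed, with log2 ratios of 1.60, 1.59 and 1.59.

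In cycling-like cells 3 abundant members were below the naive-like level in 4 of 4 libraries; 32.7% of all genes at 10 CPM or more were. Cox7a2l (ENSMUSG00000024248; chromosome 17, 83501918 to 83517330) is known as a factor that joins complexes III and IV into supercomplexes, and C57BL/6 mice carry a shortened form of its protein. It fell from 565, 588, 515 and 416 CPM in naive-like cells (sgScr, then sgArid1a) to 233, 241, 192 and 153 CPM in cycling-like cells, a log2 ratio of -1.35. The same order held in other states, with 210 to 327 CPM in exhausted-like, 202 to 329 CPM in early activated-like and 270 to 393 CPM in memory-like cells. Ndufa6 went from 507 to 584 CPM in naive-like to 255 to 301 CPM in cycling-like cells, a log2 ratio of -0.98. Uqcrh went from 924 to 1087 CPM to 645 to 704 CPM, a log2 ratio of -0.55; in exhausted-like cells its log2 ratio was -0.13. Sdha, the flavoprotein that holds the active site of complex II, was nearly level, at 113 to 127 CPM in naive-like and 109 to 127 CPM in cycling-like cells, while its partner Sdhb had a log2 ratio of 1.54.

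**Figure D2:**
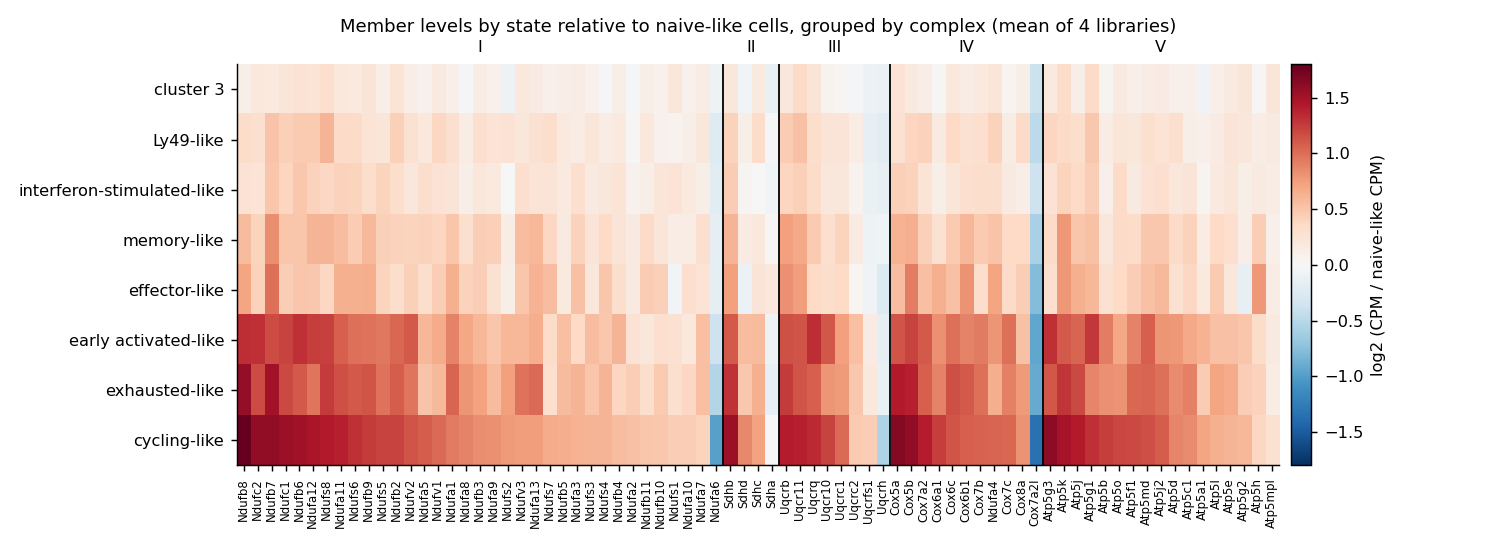
Colour gives the log2 ratio of each member's CPM to its level in naive-like cells (mean of 4 libraries), for 75 members (x axis, grouped by complex) and 8 states (y axis). Red (higher than naive-like) deepens towards the cycling-like row, up to a log2 ratio of 1.79 for Ndufb8 in cycling-like cells, and Cox7a2l is blue in every state shown.

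Isoform genes also shifted. Subunit c of complex V is made from Atp5g1, Atp5g2 and Atp5g3, whose mature proteins are the same. Atp5g2 gave 55.9 to 56.99% of their joint UMIs in naive-like cells and 39.8 to 41.9% in cycling-like cells. Atp5g3 gave 28.7 to 30.04% and 42.2 to 43.2%. In cycling-like cells of sgScr replicate 2 Atp5g3 and Atp5g2 were nearly level, at 42.2 and 41.9% of 11666 UMIs. The leading gene changed in the other libraries. The share of Atp5g1 was 14.0 to 14.7% and 15.9 to 17.5%. Exhausted-like cells lay between, with 37.6 to 38.6% from Atp5g3. These shares rest on 6746 to 90608 UMIs per library and state.

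Heart and muscle forms of complex IV subunits were close to absent. Cox7a1, the muscle partner of Cox7a2, had 158 UMIs in all, against 256 to 388 CPM for Cox7a2. Its UMIs were 5, 10, 13 and 26 in exhausted-like cells and 10, 8, 19 and 29 in cycling-like cells (sgScr, then sgArid1a), but 1, 0, 0 and 0 in naive-like cells. Over the libraries together that is 2.22 CPM (95% Poisson interval 1.67 to 2.90, counting error only) in exhausted-like and 0.0254 CPM (0.000642 to 0.141) in naive-like cells, a ratio of 87.5 (15.1 to 3520). Cox6b2, the testis partner of Cox6b1, had 405 UMIs, with 4.41 CPM (3.30 to 5.79) in early activated-like and 1.29 CPM (0.963 to 1.70) in naive-like cells. Cox6a2, the muscle partner of Cox6a1, had 50 UMIs, of which 28 came from 6 early activated-like cells of sgArid1a replicate 2 and 11 from 1 of those cells. It overlaps Itgad on the opposite strand, and it was left out of the test by the filter on low counts.

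Between the groups, summed over all T cells, 69 of the 77 members tested were higher in sgArid1a, 1 was lower and 7 were not called (edgeR quasi-likelihood test, Benjamini-Hochberg adjusted p under 0.05 over 12781 genes). Of all genes 28.1% were called higher and 26.4% lower. The members' median log2 fold change was 0.41, a fold of 1.33, against a median of -0.02 over all genes. In 74 of the 78 the groups did not overlap; 76% of all tested genes had groups that did not overlap. Over all T cells a larger share of activated cells and a higher level in each cell cannot be told apart. The values at 1 common mix of clusters, below, make only the shares of cells equal. Each cluster there still weighs by its UMIs per cell, so shares and levels are not fully separated. Median UMIs per cell were 16208 and 15419 in cycling-like against 3469 and 3319.5 in naive-like cells of sgScr. In sgArid1a they were 10111 and 17863 against 1794 and 2969.

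In complex I 33 of 35 rose, with a median log2 fold change of 0.38. Ndufb8 rose most, from 159.7 and 160.1 CPM to 281 and 269 CPM (log2 0.81 ± 0.07 SE, edgeR adjusted p = 2.31e-07). Ndufb6, also of the membrane arm, went from 128 and 129 to 204 and 205 CPM (log2 0.70). Ndufs8, which holds iron-sulfur clusters of the electron path, went from 86.5 and 87.4 to 134 and 138 CPM (log2 0.68). The pair that did not pass was Ndufs1, the largest core subunit, at 27.1 and 28.4 against 28.4 and 28.6 CPM, and Ndufa6, at 467 and 444 against 420 and 423 CPM. Ndufs1 shares its locus with Eef1b2 on the opposite strand.

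In complex II 3 of 4 rose. Sdhb had a log2 fold change of 0.58 ± 0.06 (adjusted p = 2.25e-06, edgeR), and the genes of the membrane anchor, Sdhd and Sdhc, 0.38 ± 0.06 and 0.26 ± 0.07. Sdhc was not called without sgScr replicate 2 (log2 0.21, edgeR adjusted p = 0.121) or when mtDNA-encoded and ribosomal UMIs were taken out of the library total (0.13). Sdha stood at 114 and 117 against 109 and 118 CPM, with overlapping groups.

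In complex III 7 of 8 rose. Uqcrb, which lies near the ubiquinone site, had a log2 fold change of 0.57, Uqcr11 0.53 and Uqcrq 0.51. Uqcrh, the most abundant, stood at 910 and 867 against 888 and 826 CPM with overlapping groups (adjusted p = 0.823, edgeR).

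In complex IV 10 of 13 tested rose and 1 fell. Cox5a went from 392 and 387 to 628 and 651 CPM (log2 0.75 ± 0.07, edgeR adjusted p = 4.87e-07), Cox5b from 428 and 417 to 643 and 625 CPM (log2 0.61) and Cox7a2 from 272 and 256 to 388 and 376 CPM (log2 0.56). Cox6a1 (0.52), Ndufa4 (0.52), Cox8a (0.45) and Cox6b1 (0.45) rose too. The exception was Cox7a2l, at 444 and 453 CPM in sgScr and 302 and 237 CPM in sgArid1a (log2 -0.70 ± 0.10, edgeR adjusted p = 4.17e-05). Both sgArid1a libraries were below both sgScr libraries, and the 2 sgArid1a libraries differed from each other more than the sgScr pair did. Cox7a1 and Cox6b2 were not called.

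In complex V 16 of 17 rose. Atp5g3 went from 616 in both to 986 and 991 CPM (log2 0.71), Atp5g1 from 283 in both to 457 and 445 CPM (log2 0.70), and Atp5g2 by 0.39. Atp5f1, of the peripheral stalk, went from 315 and 314 to 446 and 461 CPM (log2 0.56). Atp5mpl was not called, at 231 and 207 against 225 and 214 CPM.

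**Figure D3:**
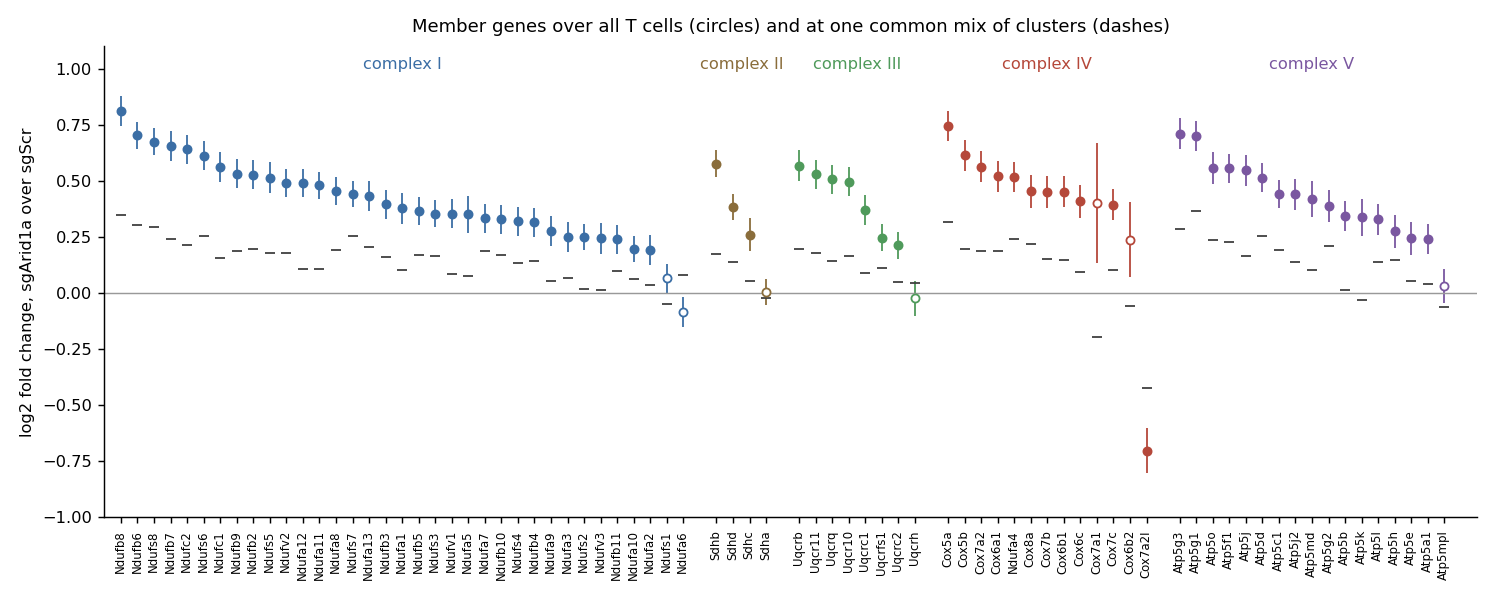
Log2 fold change, sgArid1a over sgScr (y axis), of the 77 tested members (x axis, by complex); circles with SE bars are the edgeR values over all T cells, filled where called, and dashes are the ratios at a common mix of clusters. Nearly all circles lie above 0, their dashes lie lower, and Cox7a2l at -0.70 is the only filled circle below 0.

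Without sgScr replicate 2 the count of higher members was 54, and 65 without the cells that carry the expanded Trbv13-1 or Trbv20 receptor segments, an alternative chosen after seeing the data; Trbv13-1 and Trbv20 cells were 8.10 and 8.03% of sgScr and 15.3 and 16.7% of sgArid1a T cells. Cytosolic ribosomal transcripts took 37.3 and 36.3% of UMIs in sgScr and 33.6 and 31.7% in sgArid1a, and with these and the mtDNA-encoded UMIs out of the total 56 members were higher and 2 lower, the second being Ndufa6 (log2 -0.21; its edgeR and DESeq2 adjusted p ranged from 0.00924 to 0.871 over the alternatives). That total lowers the median of all genes to -0.14, and the members' median was then 0.28. The shares of all genes called in these alternative runs are not given here, so the counts cannot be set against them.

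Summed by complex, the members' level was higher in both sgArid1a libraries than in both sgScr libraries for all 5 complexes. All 78 together went from 19603 and 19050 CPM to 24944 and 24935 CPM, a log2 ratio of 0.37. The ratio was 0.40 for complexes IV and V, 0.36 for complex I, 0.33 for complex II and 0.22 for complex III, whose largest gene is Uqcrh. Every library was then given 1 common mix, with the same shares of cells from 13 clusters. All 78 stood there at 21531 and 20768 against 23594 and 23428 CPM, a log2 ratio of 0.15. At that mix the groups still did not overlap in any complex, with log2 ratios of 0.17 in complex V, 0.16 in I, 0.15 in IV, 0.11 in II and 0.10 in III. Single members had a median log2 ratio of 0.15 there, and the median of all genes was -0.08. The groups were apart and sgArid1a higher in 56 of the 78, against 19.3% of all genes. They were apart with sgArid1a lower in Cox7a2l (-0.43), Cox7a1 (-0.20) and Ndufs1 (-0.05). The share of all genes apart in that direction is not given here, and the value of Ndufs1 is above the median of all genes. Cox7a1 stood at only 0.96 and 1.12 against 0.85 and 0.72 CPM there, near the pseudocount. Over all T cells its log2 fold change was 0.40, not called. Ndufa6 had a log2 value of -0.08 over all T cells, where it was not called, and of 0.08 at the common mix. Over the 75 members of 10 CPM or more, the log2 fold change between groups and the log2 ratio of cycling-like to naive-like cells had a Pearson r of 0.915 (0.875 without Cox7a2l, Ndufa6 and Uqcrh). With the group difference taken at the common mix, which evens out cell shares but not UMIs per cell, r was 0.642 (0.526 without those 3). The part that the UMIs per cell of each state play in this r was not tested. Both measures come from the same 4 libraries, and members are not independent, so this describes the members only.

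**Figure D4:**
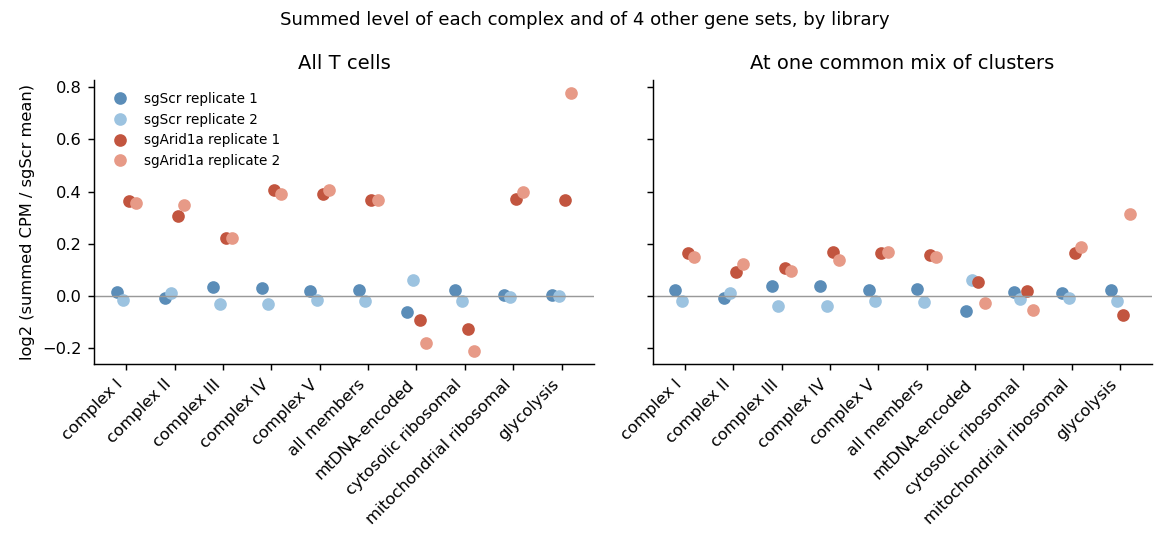
Log2 of each library's summed CPM over the sgScr mean (y axis) for the 5 complexes, all members and 4 other gene sets (x axis), over all T cells (left) and at a common mix of clusters (right); each point is 1 library. The sgArid1a points of every complex lie above the sgScr points on both sides, and are closer to them at the common mix (0.15 for all members) than over all T cells (0.37).

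Within single states the sum of all members kept its direction and the calls were fewer. By complex, the groups overlapped in complex II of effector-like cells (510 and 402 against 426 and 418 CPM). They also overlapped in complex II of interferon-stimulated-like and complex III of heat shock-like cells. The other sums by complex were higher in both sgArid1a libraries. The summed level of the 78 genes was higher in both sgArid1a libraries than in both sgScr libraries in all 11 states and clusters, with ratios of sgArid1a to sgScr of, among others, 1.08 in naive-like, 1.07 in memory-like, 1.11 in exhausted-like, 1.07 in cycling-like, 1.13 in early activated-like, 1.16 in Ly49-like cells and 1.15 in cluster 3. In naive-like cells 19 of 76 tested members were called higher and none lower (44 of 76 had an unadjusted p under 0.05), where 5.02% of all genes were called higher and 2.42% lower. Naive-like cells are 3 clusters, and cluster 1 holds most of them in sgScr and cluster 2 in sgArid1a. Memory-like cells had 8 of 75 members higher and none lower (41 with an unadjusted p under 0.05), with 2.87 and 1.05% of all genes. Cluster 3 had the most, 45 of 76 higher and 1 lower, with 6.89 and 3.28% of all genes. Exhausted-like cells had 17 of 76 higher and 1 lower, with 5.31 and 4.07% of all genes. Cycling-like cells had 5 of 77 higher and 1 lower (2.99 and 2.52%), Ly49-like cells 12 of 75 and 1 (2.07 and 0.77%), early activated-like cells 11 of 76 and 1 (3.01 and 1.47%), and interferon-stimulated-like cells 3 of 75 and 1 (0.973 and 0.82%). Effector-like cells had none called in either direction by edgeR, with 16 of 75 at an unadjusted p under 0.05, and 0.398 and 0.139% of all genes. Cluster 12 had 14 of 42 higher and none lower (6.79 and 1.48%), at 54 to 121 cells per library.

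These counts depended on single libraries. The shares of all genes called in the fits without 1 library are not given here. The counts below thus show how calls vary with the libraries, and cannot be set against other genes. Without sgScr replicate 1 or without sgScr replicate 2 no member was called higher in naive-like, memory-like or interferon-stimulated-like cells, and the counts were 11 and 7 in cluster 3 4 and 3 in exhausted-like, 2 and 0 in cycling-like, 1 and 4 in Ly49-like and 7 and 1 in early activated-like cells. Without sgArid1a replicate 2 they were 37 in naive-like, 38 in memory-like, 40 in exhausted-like, 29 in Ly49-like and 21 in cycling-like cells. Without sgArid1a replicate 1 they were 25 in memory-like and 2 in early activated-like cells.

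Over the 9 states without cluster 12 in which a test was run, 75 members were tested in every one, and 54 of them had a positive log2 fold change in all 9. The share of all genes with a positive value in all 9 is not given here. The 9 fits use the same 4 libraries, so signs in different states are not independent. Cox5a and Atp5g1 were called higher in 7 of the 9 each, Atp5g3 in 6 and Ndufb6 and Ndufb8 in 5. Atp5g1 ranged from 0.20 in effector-like cells to 0.55 in cluster 3, and Cox5a from 0.24 in naive-like to 0.57 in Ly49-like cells. Cox7a2l was the only member negative in all 9. It was the lower call in each of the 6 states or clusters that had one, with log2 fold changes of -0.34 in cluster 3, -0.41 in exhausted-like, -0.39 in cycling-like, -0.43 in Ly49-like and interferon-stimulated-like and -0.47 in early activated-like cells. In naive-like cells it was -0.25 (edgeR adjusted p = 0.0525), in memory-like -0.29 and in effector-like cells -0.41, none of them called. Without sgScr replicate 2 no member was called lower in any state, without sgScr replicate 1 only in early activated-like and without sgArid1a replicate 2 only in exhausted-like cells. Its groups did not overlap at the common mix either, where its log2 ratio was -0.43.

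**Figure D5:**
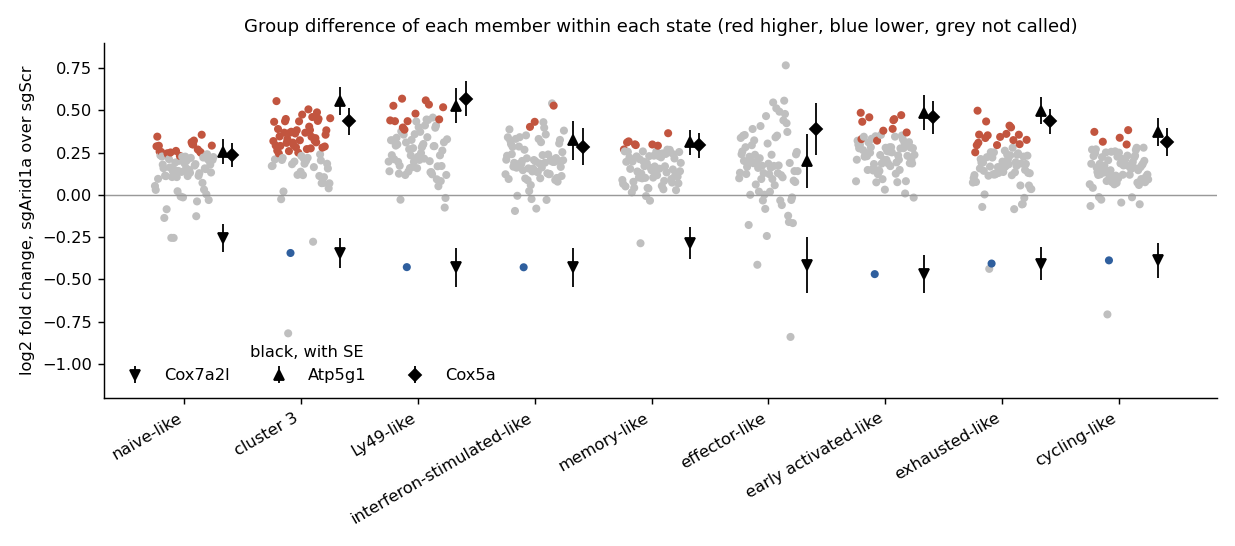
Log2 fold change, sgArid1a over sgScr (y axis), of each tested member within 9 states (x axis); red points were called higher, blue lower and grey not called, and black symbols repeat Cox7a2l, Atp5g1 and Cox5a with their SE. Most points lie above 0 in every state, and Cox7a2l lies between -0.25 and -0.47.

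Whether the group difference itself changed with the state was tested as an interaction. Between memory-like and naive-like cells none of 76 members differed (edgeR; 8 had an unadjusted p under 0.05, the smallest adjusted p was 0.12 for Cox6b1), where 2.08% of 10742 genes did. Between exhausted-like and naive-like cells, a pair chosen after seeing the data, 6 of 77 differed, where 5.7% of 11196 genes did, so the members' share (4 larger and 2 smaller) is close to that of all genes. Uqcr11 had the largest difference: -0.03 in naive-like and 0.33 in exhausted-like cells.

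The 13 mtDNA-encoded genes did not rise with the nuclear ones over all T cells. None was called higher (edgeR; 4 had an unadjusted p under 0.05, each of them lower), 3 of 13 were called lower and 10 were not called, where 26.4% of all genes were called lower. The 3 were mt-Co3, a core subunit of complex IV, at 3309 and 3756 against 2808 and 2473 CPM (log2 -0.39), mt-Nd5 (-0.27) and mt-Nd6 (-0.53), both of complex I. Their count of lower calls was 9 without sgArid1a replicate 1 and 1 without sgScr replicate 2. The sum went from 20413 and 22213 to 19993 and 18774 CPM, a log2 ratio of -0.14, and at the common mix it was 19278 and 20939 against 20831 and 19722 CPM, overlapping. Within exhausted-like cells 5 of the 13 were called higher and 1 lower, where 5.31 and 4.07% of all genes were.

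Genes that work with the chain were read from lists drawn up with earlier results of these data known, and directions here are relative to all genes called (28.1% higher, 26.4% lower). Of 7 other tested genes that the name rule passed over, not all of them subunits, 6 rose and 1 fell. Cycs, cytochrome c itself, rose by 0.86, Ndufab1, the acyl carrier of complex I, by 0.71 and Atpif1, the inhibitor of ATP synthase, by 0.70. Cyc1 rose by 0.42, Dmac2l by 0.36 and Cox4i1 by 0.32, while Dmac2 fell by 0.36. Assembly factors rose in 9 of 15 for complex I, with 1 lower (Ndufaf3 0.55, Ndufaf7 0.51, Tmem186 -0.41). They rose in 4 of 4 for complex II (Sdhaf3 0.44, Sdhaf4 0.26), in 3 of 6 for complex III with 1 lower (Uqcc2 0.62, Bcs1l 0.24, Lyrm7 -0.68), in 11 of 22 for complex IV (Cmc2 0.79, Cox17 0.67) and in 1 of 4 for complex V (Tmem70 0.41).

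Of 78 mitochondrial ribosomal protein genes, whose products translate the mtDNA-encoded transcripts, 71 were higher and none lower, led by Mrps6 (0.89) and Mrpl17 (0.79), and their summed log2 ratio was 0.38 over all T cells and 0.18 at the common mix. Of 24 genes of protein import and cristae 20 rose (Timm8a1 0.80, Timm17a 0.67). Of 9 carriers and porins 8 rose (Slc25a5, which exchanges ADP for ATP, 0.53, and Vdac3 0.51), and of 7 mitochondrial antioxidant genes 6 (Glrx5 0.45, Txn2 0.34). The citric acid cycle had 9 of 17 higher (Fh1 0.64, Mdh2 0.57). Glycolysis had 12 of 16 higher (Tpi1 0.83, Pgam1 0.82); its summed log2 ratio was 0.59 over all T cells and 0.13 at the common mix, where the groups overlapped (5730 and 5569 against 5366 and 7017 CPM). Cytosolic ribosomal protein genes had 5 of 82 higher (among them Rpl39l 1.42 and Rps27l 0.997) and 26 lower (Rps27 -0.66, Rps21 -0.57).

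Transcription factors and mtDNA maintenance genes did not move together. Of 15 tested, 3 were higher (Tfb1m 0.31, Myc 0.28, Gabpb1 0.24), 3 lower (Ppargc1b -0.49, Polg -0.30, Yy1 -0.16) and 9 not called. Nrf1 stood at 30.9 and 32.8 against 33.2 and 32.9 CPM, Tfam, which packages mtDNA, at 34.8 and 36.3 against 34.4 and 35.1 CPM, and Gabpa at 14.96 and 16.9 against 16.0 and 16.2 CPM, none of them called.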

How the data were processed

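CD8+ T cells of 4 libraries were analysed. The authors deposited raw UMI counts per gene and barcode, already limited to called cells. Cell Ranger 6.0.1 is named per the file headers, but version 3.0.2 of it in the submitters' processing notes, which add Seurat and mm10. Which version applies, the annotation and the use of strand are not given in the sources used here. In the GENCODE M21 annotation 36 of the 78 members overlap another gene, 11 of them on the same strand, and such reads may be split or lost.

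Of 39473 barcodes, 38316 had 500 genes or more and no more than 10% of UMIs from mtDNA, and 139 cells with B cell and MHC class II genes were then left out. Cells were clustered (scanpy 1.11.5, leidenalg 0.10.2, 2000 variable genes, 30 components, 15 neighbours, resolution 0.8, seed 1) without the members, the mitochondrial, ribosomal, receptor genes, Xist and Y-linked genes. No doublet caller was used; cells with at least 2 UMIs in each of 2 Trbv segments were 6.73 to 13.2% of a library, and their removal was an alternative. UMIs were summed per library, or per library and state with at least 50 cells in each, and tested with edgeR 4.0.16 in R 4.3.3 (TMM, filterByExpr, quasi-likelihood, 2 against 2 libraries, no covariate, adjusted p under 0.05); DESeq2 1.42.0 was an alternative. The test between states kept the library as a block. CPM are per 1000000 UMIs of the library or state. Common-mix ratios of single genes use a pseudocount of 1 CPM. The edgeR step was tested on simulated data. Intervals and limits cover counting error only.

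The members and lists were chosen with earlier results of these data known. Named were, for each complex, the 2 highest genes, the 3 with the smallest p among those higher and up to 3 lower, the Sdh genes and isoform families, the 2 smallest p in each direction of each other list, and the members with the smallest interaction p; the regulators and the genes that moved against the rest across states were chosen after their values were seen. Promoter sequences are from RefSeq, GRCm38.p6.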

Additional observations from a re-analysis of the deposited data

Results flagged for a closer look

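The group difference (sgArid1a over sgScr, log2) differed between exhausted-like and naive-like cells in 6 members by the interaction test in edgeR, with adjusted p under 0.05. It was larger in exhausted-like cells for Uqcr11 by 0.37 ± 0.08 (SE, adjusted p = 0.00304), for Atp5g1 by 0.25 ± 0.05 (0.00412), for Cox5a by 0.20 ± 0.05 (0.0140) and for Cox6a1 by 0.18 ± 0.06 (0.0485). Uqcrh had the opposite sign, with a difference of -0.16 ± 0.04 (edgeR adjusted p = 0.00837): 0.21 in naive-like and 0.04 in exhausted-like cells, neither called. Atp5c1 also had -0.16 ± 0.05 (edgeR adjusted p = 0.0415), being called higher in naive-like cells (0.29) and not in exhausted-like cells (0.12). The pair of states was chosen after seeing the data, and 5.7% of all genes tested also differed by this test.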

How the results depend on the processing

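With 2 libraries a group, 5′ counts without a stated use of strand, and states rebuilt from markers, calls rest on few libraries. For the alternative runs below the shares of all genes called are not given, so their counts describe the members' calls only. The replicate numbers do not pair the libraries (correlation of same-numbered deviations -0.05 over 12781 genes). Over all T cells the count of higher members was between 54 and 70 in every alternative run (69 as reported), with leave-one-out counts from 54 to 70, and with the replicate block it was 69 higher and 1 lower; the lower count was 1 throughout, except 2 with the total without mtDNA-encoded and ribosomal genes. The median log2 fold change was 0.36 to 0.48 leaving out 1 library, 0.28 with that total and 0.31 without Trbv13-1 and Trbv20 cells. The log2 ratio of the summed level (0.37) was 0.35 to 0.39 leaving out 1 library, 0.15 at the common mix, 0.31 without cycling-like cells and 0.27 with the reduced total. Of 405 values of 27 named members, 402 kept their side of the threshold, 2 (both Sdhc) lost the call and 1 (Ndufa6) gained it. No called member changed its sign, but the uncalled Sdha, Uqcrh and Ndufa6 did so in 11 values, with ranges from -0.12 to 0.02, -0.15 to 0.06 and -0.21 to 0.03.

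The mtDNA-encoded genes had 0 or 1 higher and 1 to 9 lower leaving out 1 library, and 6 lower with the replicate block. Within states the lowest and highest counts of higher members leaving out 1 library were 0 and 37 in naive-like, 0 and 38 in memory-like, 7 and 56 in cluster 3, 3 and 40 in exhausted-like, 0 and 21 in cycling-like, 1 and 29 in Ly49-like, 0 and 6 in interferon-stimulated-like, 1 and 13 in early activated-like cells and 4 and 18 in cluster 12. Counts of lower members were 0 or 1 in each. With the replicate block the higher counts were 3 in memory-like, 19 in cycling-like, 20 in Ly49-like, 7 in interferon-stimulated-like, 21 in early activated-like cells and 5 in cluster 12, and 1 member was lower in naive-like cells. At the coarser Leiden resolution of 0.5 they were 0 higher and 0 lower in interferon-stimulated-like, 6 in early activated-like cells and 6 in cluster 12. The members whose group difference changed between states were 0 for memory-like and 6 for exhausted-like against naive-like cells. The causes of these differences were not tested; leaving out a library leaves its group with 1, assumed to vary like the other group.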
